A study of Arabidopsis thaliana with 4 samples.

Results

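The 10 genes described here make, modify or regulate the indole glucosinolates and camalexin in roots of Arabidopsis thaliana. The core enzymes among them are CYP79B2 (AT4G39950), CYP79B3 (AT2G22330) and CYP83B1 (AT4G31500), and the regulators are MYB34 (AT5G60890) and MYB51 (AT1G18570). The modifying enzymes are CYP81F2 (AT5G57220), CYP81F4 (AT4G37410), IGMT1 (AT1G21100) and IGMT2 (AT1G21120), and PAD3 (AT3G26830) stands for camalexin. They were picked by locus identifier, with results of these same libraries already known, out of 22284 loci with a row in the read count table. Their own values are therefore given as a description, without a test. All 10 had reads in every library, were listed with 1 transcript model each and passed the filter on low counts.

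The samples are roots of seedlings from 2 lines, each grown in a dilute nutrient solution of pH 5.0 and moved at 6 days of age to the same solution with 0 or 10 µM AlCl3 for 24 h. One line is wild type of accession Col-0 and the other carries the label of an arf10/arf16 double mutant in the Col-0 background, whose alleles the labels do not name (arf10/16 below). About 500 seedlings are stated for the treatment, so each library is a pool of many roots. There is 1 library for each of the 4 combinations, so every difference between libraries lacks a replicate check, and intervals cover counting error only.

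Indole glucosinolates are sulfur-containing defence compounds that plants of the cabbage order make from tryptophan. CYP79B2 and CYP79B3 convert tryptophan to indole-3-acetaldoxime, from which CYP83B1 leads into the glucosinolate core, while a separate branch ends with PAD3 in the antimicrobial compound camalexin. Finished indole glucosinolates are hydroxylated by CYP81F enzymes and methylated by IGMT enzymes, and MYB34, MYB51 and MYB122 switch on the genes of the core. Indole-3-acetaldoxime is also linked to auxin synthesis.

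As a check of the labels, the untreated libraries gave ARF10 110 reads (wild type) and 3820 reads (arf10/16), and the Al libraries 142 and 2640 in that order. ARF16 gave 159 and 71 reads untreated, and 75 and 41 under Al. More ARF10 reads in arf10/16 do not match a label of ARF10 loss, so the libraries are called by their labels and every direction between the lines rests on those labels. The libraries held 2080348 to 2280894 reads. All 7 root marker genes had reads in every library, and their summed level was 1607 and 1574 CPM (the read count scaled to library size) without Al and 325 and 429 with Al, in wild type and arf10/16. The largest part came from the phosphate uptake gene PHT1;1, with 924 and 943 CPM without Al and 133 in each line with Al. SHR, by contrast, had 61.6 and 51.4 CPM without Al and 55.0 and 51.3 with Al. The 11 photosynthesis genes taken as markers of shoot tissue summed to 139 and 128 CPM without Al and 64.5 and 69.3 with Al. RBCS3B had no read in the untreated libraries, and LHCB1.1 and LHCB2.1 had none in the libraries with Al. Both marker sums were lower with Al in both lines, and their part in the Al differences below was not tested. In bulk roots, fewer cells of a type and less RNA per cell cannot be told apart.

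Each comparison below is a ratio of scaled CPM between 2 libraries. A gene counts as higher or lower by the rule of size if its ratio, with a prior count of 2 added, is at least 2-fold and its 95% counting interval excludes 1; fold values are printed without the prior count.

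The largest differences among the 10 genes lay between the lines without Al. There 5 of the 10 were higher in arf10/16 (CYP83B1, MYB51, CYP81F2, IGMT1 and IGMT2) and 0 were lower, with 7.96% of all 14739 loci higher and 2.6% lower. The median log2 ratio of the 10 was 1.19, beside 0.00 over all loci. With Al, 4 were higher (MYB51, CYP81F2, IGMT1 and IGMT2) and 0 lower, beside 4.12% and 1.77% of all loci, and the median was 0.67. Because the genes were proposed with these contrasts known, these counts describe the choice and support nothing by themselves. Each library enters 1 comparison of the lines and 1 Al comparison. The untreated arf10/16 library, for instance, enters the comparison of the lines without Al and the Al comparison of its own line, so a high value there raises the first ratio and lowers the second.

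**Figure D1:**
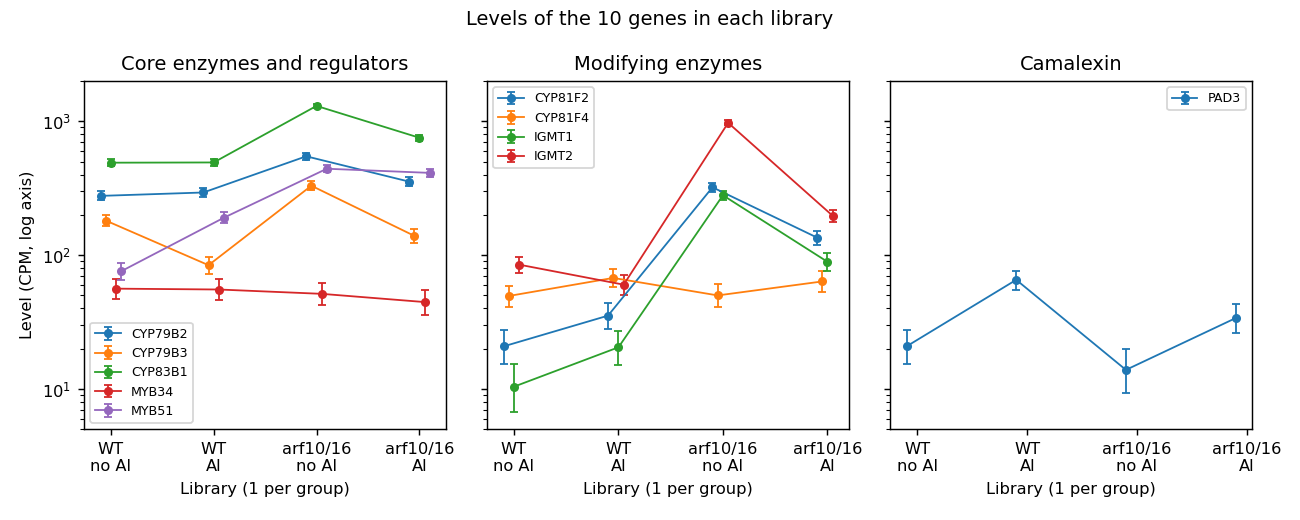
Level of each of the 10 genes (CPM, log axis) in the 4 libraries, 1 per group, with bars for the 95% Poisson counting interval. CYP81F2, IGMT1 and IGMT2 peak in the untreated library labelled arf10/16, whereas MYB34 and CYP81F4 stay between 44.6 and 67.6 CPM in every library.

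In untreated wild type the 3 core enzymes had the highest RPKM of the set, while in the other libraries MYB51 or IGMT2 ranked above CYP79B3. CYP83B1, which oxidises indole-3-acetaldoxime, had 491 CPM in untreated wild type and 1304 in untreated arf10/16, then 493 in Al-treated wild type and 754 in Al-treated arf10/16. It was thus almost the same in both wild-type libraries (counting interval of the ratio 0.925 to 1.09) and 2.66-fold higher in arf10/16 without Al (2.48 to 2.85). With Al the difference between the lines was 1.53-fold (1.42 to 1.65), under the rule of size.

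CYP79B2 had 277, 548, 294 and 354 CPM in the same order of libraries, and CYP79B3 had 182, 330.2, 84.2 and 139.5. These 2 enzymes carry out the same step, and their coding sequences are 81.3% identical in the RefSeq annotation. Without Al both were a little under 2-fold higher in arf10/16: CYP79B2 1.98-fold (1.80 to 2.18) and CYP79B3 1.82-fold (1.61 to 2.05), so neither passed the rule of size.

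The pair parted with Al. In wild type CYP79B3 was 2.16-fold lower with Al (1.82 to 2.57) and in arf10/16 2.37-fold (2.06 to 2.73). For CYP79B2 the wild-type ratio was 1.06-fold upward (0.951 to 1.18) and that of arf10/16 1.55-fold downward (1.41 to 1.70). CYP79B2 therefore made up 60.4% of the reads of the pair in wild type without Al (exact 95% interval 57.5 to 63.3) and 77.7% with Al (74.8 to 80.5). In arf10/16 the shares were 62.4% (60.2 to 64.6) and 71.8% (68.8 to 74.6). Such a share is taken within a library and does not depend on how libraries are scaled. CYP79B2 lies next to APK2, an adenosine phosphosulfate kinase gene that helps supply the sulfate donor of glucosinolates. APK2 had 321, 393, 251 and 202 reads, and none of its ratios passed the rule of size.

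The 2 regulators differed from each other. MYB51, an activator of indole glucosinolate genes, had 75.8 CPM in untreated wild type and 442 in untreated arf10/16, and 191 and 412 under Al. Wild type without Al was the low library, and both arf10/16 libraries were high. Under Al, MYB51 was 2.52-fold higher in wild type (interval 2.11 to 3.01), while arf10/16 had a ratio of 1.07-fold downward (0.977 to 1.18). Between the lines it was 5.84-fold higher in arf10/16 without Al (4.98 to 6.88) and 2.16-fold higher with Al (1.92 to 2.43).

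MYB34, which belongs to the same small group of MYB activators, had 56.2, 51.4, 55.4 and 44.6 CPM. Its 4 pairwise ratios all had counting intervals that included 1. MYB122, the third gene of the group and no member of the set, had 12, 55, 58 and 46 reads. It was low in wild type without Al and at similar counts in the other 3 libraries.

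The make-up of this MYB group shifted with these levels. MYB51 made up 55.3% of its reads in wild type without Al (49.8 to 60.8), 70.3% in wild type with Al (66.5 to 73.8), and 85.2% (83.0 to 87.2) and 85.8% (83.4 to 88.0) in arf10/16 without and with Al. MYB34 went from 41.0% in wild type without Al (35.7 to 46.6) to 9.90% in arf10/16 without Al (8.22 to 11.8). The coding sequences of the 3 MYB genes share no 50-base window, so reads of about that length could be assigned to 1 of them.

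**Figure D2:**
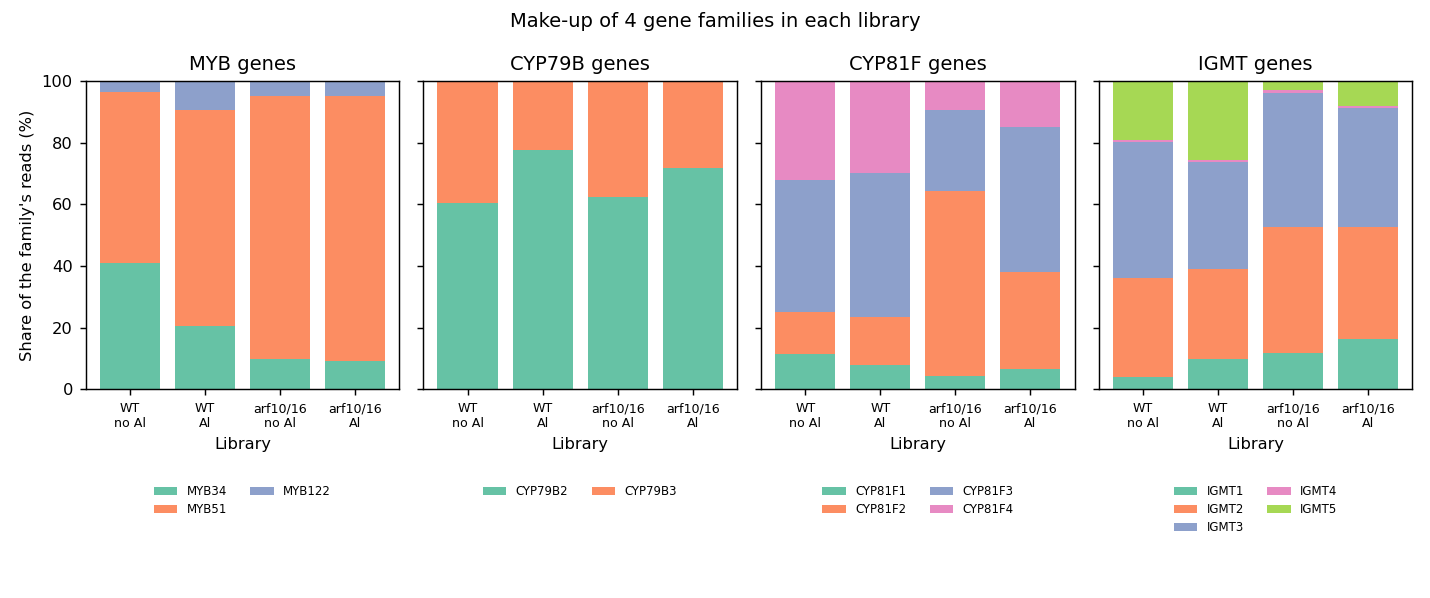
Share of reads (%) taken by each gene within 4 gene families, in each of the 4 libraries. MYB51 goes from 55.3% of the MYB reads in untreated wild type to 85.2% in the untreated library labelled arf10/16, and CYP81F2 from 13.5% to 60.0% of the CYP81F reads.

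The modifying enzymes held the widest range. CYP81F2, which hydroxylates indol-3-ylmethyl glucosinolate at the 4 position, had 20.8 CPM in untreated wild type and 321 in untreated arf10/16, and 35.3 and 135 under Al. Both arf10/16 libraries were above both wild-type libraries. It was 15.4-fold higher without Al (11.6 to 21.0) and 3.83-fold higher with Al (2.98 to 4.98). The Al ratio was 1.70-fold upward in wild type (1.18 to 2.47), under the rule of size, whereas arf10/16 was 2.37-fold lower with Al (2.06 to 2.75).

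CYP81F4, which hydroxylates the same compound at the 1 position, had 49.5, 50.02, 67.6 and 63.6 CPM. None of its 4 ratios passed the rule of size. CYP81F2 and CYP81F4 thus moved apart. CYP81F2 made up 13.5% of the CYP81F1 to CYP81F4 reads in wild type without Al (10.2 to 17.4) and 60.0% in arf10/16 without Al (57.1 to 62.8). CYP81F4 made up 32.2% (27.4 to 37.2) and 9.33% (7.72 to 11.2) of them. With Al, CYP81F2 held 15.5% in wild type (12.5 to 18.9) and 31.7% in arf10/16 (28.6 to 35.01). The other relatives, CYP81F1 and CYP81F3, had 43, 51, 42 and 54 reads and 158, 304, 244 and 390 reads in the order used above.

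IGMT1 and IGMT2 are methyltransferases that cap the hydroxylated compounds. IGMT1 had 10.4, 280.2, 20.5 and 89.3 CPM, from 25, 605, 47 and 174 reads. IGMT2 had 84.9, 974, 60.2 and 197 CPM, from 204, 2104, 138 and 384 reads. In both genes the untreated arf10/16 library was far above the other 3.

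IGMT1 was 26.9-fold higher in arf10/16 without Al (18.1 to 41.9) and 4.35-fold higher with Al (3.14 to 6.15). IGMT2 was 11.5-fold higher (9.93 to 13.3) and 3.27-fold higher (2.69 to 4.01). In the arf10/16 pair both were lower with Al, IGMT1 by 3.14-fold (2.65 to 3.74) and IGMT2 by 4.95-fold (4.44 to 5.53). In wild type IGMT1 was 1.97-fold higher with Al (1.19 to 3.34) and IGMT2 1.41-fold lower (1.13 to 1.76), both under the rule of size.

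IGMT1, IGMT3, IGMT2 and IGMT4 lie next to each other in this order on chromosome 1, and the first 3 are near copies. The coding sequence of IGMT4 was not compared with theirs, so how far its reads could be shared is unknown. Coding bases 277 to 366 show how IGMT1, IGMT2 and IGMT3 differ. This stretch holds the most variable positions of any stretch of its length that starts at a codon. Sequences are from RefSeq, assembly TAIR10.1, read 5′ to 3′ on the coding (minus) strand, and capitals mark the 18 positions at which the 3 genes are not all the same.
IGMT1: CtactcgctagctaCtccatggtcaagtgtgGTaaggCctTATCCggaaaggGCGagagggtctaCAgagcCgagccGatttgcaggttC
IGMT2: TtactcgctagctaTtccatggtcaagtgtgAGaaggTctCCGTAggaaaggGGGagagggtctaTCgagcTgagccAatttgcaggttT
IGMT3: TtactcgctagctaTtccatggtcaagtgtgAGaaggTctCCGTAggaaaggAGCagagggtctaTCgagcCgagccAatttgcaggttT

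Over the whole coding sequence of 1122 bases the 3 genes differ at 95 positions. IGMT2 and IGMT3 are 97.4% identical, and 32.8% of the 50-base windows of the IGMT2 transcript occur unchanged in IGMT3. IGMT1 is 92.5% identical to IGMT2 and shares 2.61% of its windows with it. How reads shared by such copies were assigned is not given in the sources used here, so the split between IGMT2 and IGMT3 is uncertain and IGMT1 is less exposed to it.

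IGMT3, no member of the set, had 281, 2245, 164 and 408 reads, close to IGMT2 throughout, and IGMT4 had 4, 54, 3 and 6. IGMT3 was 8.89-fold higher in arf10/16 without Al (7.85 to 10.1) and 2.93-fold higher with Al (2.44 to 3.53). IGMT5, a relative outside the cluster known for the branch of the 1 position, had 122, 148, 122 and 86 reads. It shares no 50-base window with IGMT1, IGMT2 or IGMT3, and none of its ratios passed the rule of size. IGMT5 made up 19.2% of the IGMT reads in wild type without Al (16.2 to 22.5) and 2.87% in arf10/16 without Al (2.43 to 3.36). CYP81F4 and IGMT5, the genes of the 1 position, passed the rule in no comparison. CYP81F2, IGMT1, IGMT2 and IGMT3 passed it in both comparisons of the lines. CYP81F3 and IGMT4 passed it between the lines without Al but not with Al. CYP81F1 passed it in neither (1.32-fold, 0.862 to 2.03, without Al and 1.51-fold, 0.992 to 2.32, with Al).

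PAD3, the last enzyme of camalexin synthesis, followed a different order. It had 20.8 CPM in untreated wild type and 13.9 in untreated arf10/16, and 65.4 and 33.9 under Al, from 50, 30, 150 and 66 reads. Both libraries with Al were above both without. In wild type PAD3 was 3.14-fold higher with Al (2.27 to 4.42) and in arf10/16 2.44-fold (1.56 to 3.89). Relative to wild type, its ratio in arf10/16 was 1.498-fold downward without Al (0.934 to 2.44) and 1.93-fold with Al (1.44 to 2.62), both under the rule of size. The second ratio passes the rule, as lower, when libraries are scaled by total counts (log2 ratio -1.03) or read from the RPKM (-1.03).

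**Figure D3:**
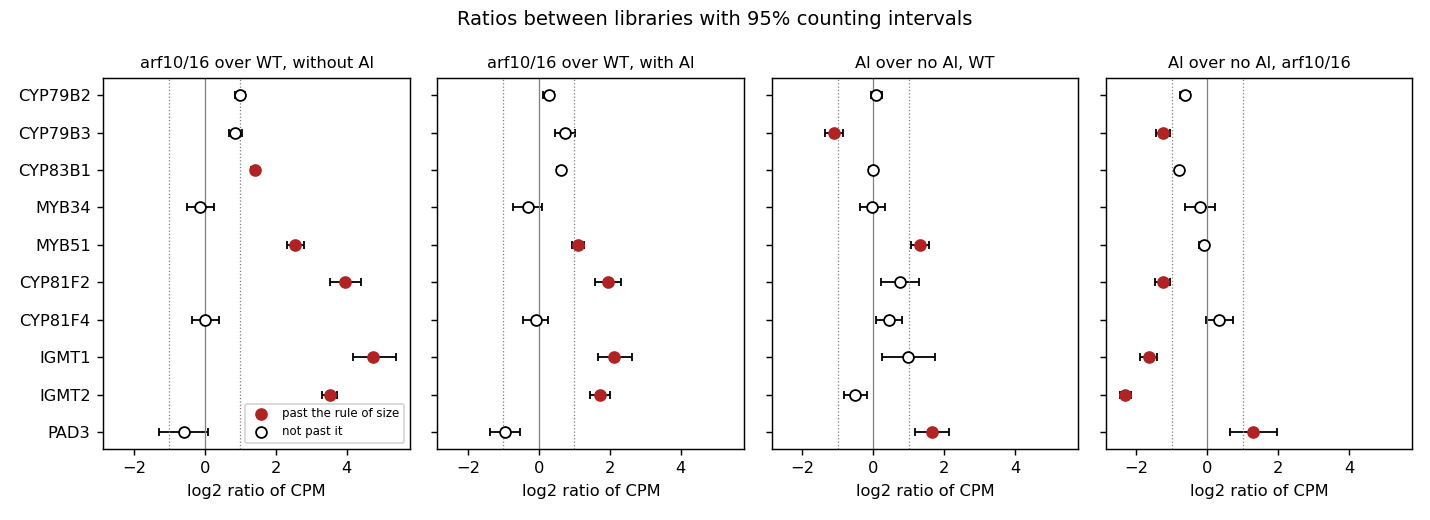
Log2 ratio of CPM between 2 libraries for each of the 10 genes, in 4 comparisons, with 95% counting intervals. Filled points passed the rule of size, dotted lines mark a 2-fold difference, and PAD3 is the gene higher with Al in both lines.

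With Al, 2 of the 10 genes were higher in wild type (MYB51 and PAD3) and 1 lower (CYP79B3), beside 14.4% and 12.1% of all loci. In arf10/16, 1 was higher (PAD3) and 4 were lower (CYP79B3, CYP81F2, IGMT1 and IGMT2), beside 10.8% and 9.41%. The median log2 ratio of the 10 was 0.26 in wild type and -0.71 in arf10/16. The Al comparisons of the lines share no library. On the log2 scale their difference, arf10/16 minus wild type, equals the ratio of the lines with Al minus that without Al. Because the genes were proposed with those ratios known, its signs and counts describe the choice and support nothing by themselves. This difference was below 0 for all 10 genes, with a median of -0.75 beside 0.00 over all loci. For 4 of them it passed the rule of size, beside 4.84% of all loci lower and 3.31% higher: IGMT1 (-2.56 on the log2 scale, -3.35 to -1.88), CYP81F2 (-1.98, -2.55 to -1.46), IGMT2 (-1.81, -2.16 to -1.46) and MYB51 (-1.42, -1.71 to -1.15). The other 6 lay between -0.80 for CYP83B1 and -0.10 for CYP81F4. Among these, the counting intervals included 0 for CYP79B3 (-0.45 to 0.18), MYB34 (-0.72 to 0.35), CYP81F4 (-0.61 to 0.41) and PAD3 (-1.14 to 0.40).

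**Figure D4:**
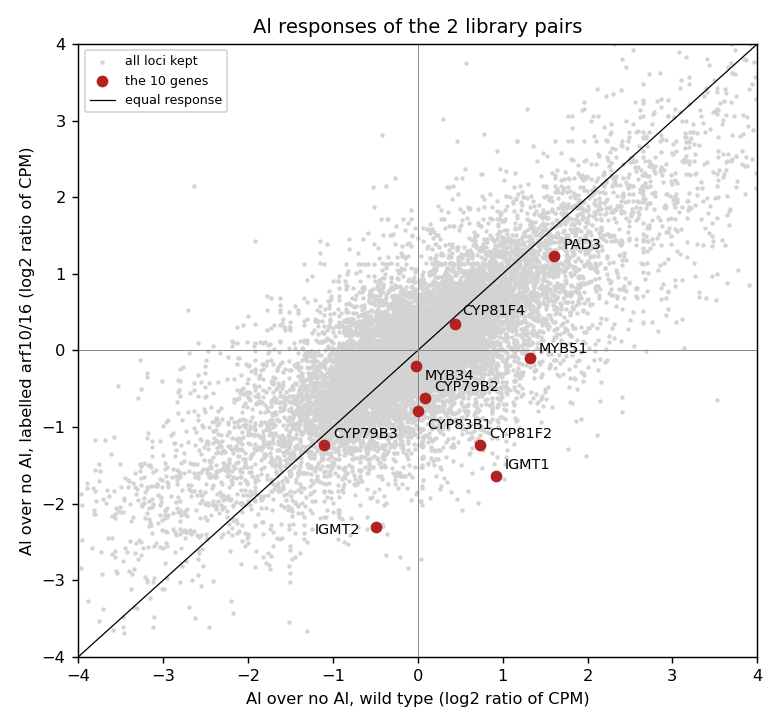
Al response (log2 ratio of CPM, Al over no Al) in the pair labelled arf10/16 against that in wild type, with all loci kept in grey, the 10 genes in red and a line of equal response; loci beyond the axes are not drawn. All 10 genes lie below the line, IGMT1 farthest from it with a difference of -2.56. The counting intervals of the difference for CYP79B3, MYB34, CYP81F4 and PAD3 include an equal response. The genes were chosen with results of these libraries known.

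Levels between genes were compared on the deposited RPKM, which divides by model length. CYP83B1 had the highest RPKM of the 10 in all 4 libraries, with 303 in wild type and 737 in arf10/16 without Al, and 284 and 405 with Al. In the untreated arf10/16 library IGMT2 came next at 708, and the counting intervals of the 2 genes overlapped (710 to 765 and 678 to 739). IGMT2 ranked the fourth in wild type without Al, at 67.3. The lowest were IGMT1 at 8.09, CYP81F2 at 13.0 and PAD3 at 13.5 in wild type without Al, where IGMT1 overlapped CYP81F2 and CYP81F2 overlapped PAD3. PAD3 was the lowest in both arf10/16 libraries, at 8.26 and 19.1.

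The mean profile of the 10 genes over the 4 libraries, as log2 CPM centred on each gene's own mean, was -0.78 in untreated wild type and 0.93 in untreated arf10/16, and -0.43 and 0.28 under Al. CYP83B1 lay nearest to it (Euclidean distance 0.33) and PAD3 farthest (2.53). Among 4788 other loci with a symbol and at least 100 reads, the 5 nearest were PLDGAMMA1 (distance 0.16), ERF6 (0.17), DAR6 (0.19), PEPR1 (0.19) and RABH1c (0.19). With 4 libraries such likeness is a description only. PLDGAMMA1, a phospholipase D gene, had 493, 1373, 660 and 842 reads, ERF6, an ethylene response factor gene, 228, 727, 293 and 457, and PEPR1, a receptor gene for plant danger peptides, 214, 731, 280 and 353. DAR6 had 16, 54, 24 and 33 reads and RABH1c, a small GTPase gene, 35, 99, 47 and 66.

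Upstream sequence was read from RefSeq TAIR10.1 as the 250 bases before each annotated gene start. The start sites of the authors' models may differ, since their model length equals that of the closest RefSeq transcript for CYP79B2 and CYP81F4 alone. Searched on both strands were the W box of WRKY factors (TTGACC or TTGACT), the G box (CACGTG) and 2 forms of the auxin response element bound by auxin response factors (TGTCTC and TGTCGG). A W box was found in 3 of the 10 windows and in 28.4% of 27443 windows of all coding genes, so the share in the set is near the background. The 3 genes were CYP81F2, with 2 matches, IGMT1 and IGMT2. At least 2 matches occur in 6.18% of all windows. TGTCTC was found before CYP81F2 alone (10.9% of all windows), and neither the G box (6.49%) nor TGTCGG (4.16%) was found in any of the 10.

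The 3 windows with a W box are shown because they hold a match. Whether a match goes with the ratios between the lines was not tested. Each runs 5′ to 3′ on the coding strand (plus for CYP81F2, minus for IGMT1 and IGMT2) and ends at the base before the annotated start, with W boxes in capitals (AGTCAA and GGTCAA are the same box on the other strand).
CYP81F2: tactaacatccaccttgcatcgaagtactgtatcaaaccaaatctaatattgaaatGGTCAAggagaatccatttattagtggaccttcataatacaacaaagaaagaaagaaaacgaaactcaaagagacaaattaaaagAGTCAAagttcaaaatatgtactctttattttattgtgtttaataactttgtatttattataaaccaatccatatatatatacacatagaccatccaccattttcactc
IGMT1: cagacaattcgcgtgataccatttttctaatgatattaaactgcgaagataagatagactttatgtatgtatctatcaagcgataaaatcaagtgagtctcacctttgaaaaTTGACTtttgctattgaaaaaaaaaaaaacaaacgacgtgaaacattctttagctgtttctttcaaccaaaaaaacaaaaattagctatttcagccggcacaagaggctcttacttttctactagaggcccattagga
IGMT2: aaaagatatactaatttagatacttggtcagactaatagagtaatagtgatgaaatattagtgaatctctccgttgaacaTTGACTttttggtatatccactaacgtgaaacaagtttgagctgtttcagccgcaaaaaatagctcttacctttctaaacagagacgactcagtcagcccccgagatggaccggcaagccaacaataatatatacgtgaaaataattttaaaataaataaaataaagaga

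The matches lie 194 to 189 and 109 to 104 bases before the start of CYP81F2, 138 to 133 before IGMT1 and 170 to 165 before IGMT2. IGMT3 and IGMT4 hold 1 match each. The windows of IGMT2 and IGMT3 are 84.2% identical, against 47.1% for IGMT1 and IGMT2, so the matches of those copies are not independent. MYB51 and CYP83B1, which like CYP81F2, IGMT1 and IGMT2 were higher in arf10/16 without Al, have no match in their windows. These are matches of letters and no evidence of binding.

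The rest of the pathway was described from lists that hold none of the 10 genes: 60 loci of tryptophan synthesis, the glucosinolate core, modification, camalexin, regulation, breakdown and transport, of which 57 had a row and 52 passed the filter on low counts. These lists, and the aliphatic list below, were also chosen with earlier results of these data known. Their counts and p-values are therefore a description as well. Without Al, 20 of the 52 were higher in arf10/16 and 0 lower by the rule of size, beside 7.96% and 2.6% of all loci, and their median log2 ratio was 0.48. With Al, 7 were higher and 1 lower (median 0.41), beside 4.12% and 1.77%.

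Among regulators, 5 of 9 were higher in arf10/16 without Al. WRKY33, the activator of camalexin genes, was 4.74-fold higher (4.44 to 5.06) and MYB122 5.10-fold (2.70 to 10.5). The MAP kinase gene MPK3 was 3.95-fold higher (3.60 to 4.34) and NAC042 3.62-fold (2.26 to 5.98). MYC2, a bHLH partner of the MYBs, was higher as well, whereas its relatives MYC3 and MYC4 had log2 ratios of -0.03 and -0.62. With Al, WRKY33 (2.14-fold, 2.03 to 2.26) and MYC2 (2.01-fold, 1.80 to 2.26) were higher.

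Of the 6 other genes on the camalexin list that passed the filter, 3 were like PAD3 in that both libraries with Al were above both without. They are GSTU4 and PDR12, with 6, 8, 181 and 97 reads and 2, 3, 37 and 10 reads, and GGP3, a peptidase gene with 110, 95, 184 and 231 reads. GGP3 was 2.69-fold higher with Al in arf10/16 (2.11 to 3.46), and its wild-type ratio of 1.75-fold was under the rule of size. The Al ratio of PDR12 in arf10/16, from 3 and 10 reads, did not pass the rule (0.951 to 20.9). CYP71A12, GSTF6 and FOX1 did not have this order, and the share of all loci that have it was not counted. FOX1 is listed for the branch of 4-hydroxy-indole-carbonyl-nitrile and not for camalexin itself. CYP71A12, which dehydrates indole-3-acetaldoxime, had 365, 738, 207 and 317 reads. It was 2.25-fold higher in arf10/16 without Al (1.98 to 2.56), where PAD3 was at a log2 ratio of -0.55. Its close relative CYP71A13 had 1, 7, 0 and 6 reads and did not pass the filter; their coding sequences are 90.4% identical. GSTF6 and FOX1 were 3.42-fold (2.19 to 5.49) and 3.13-fold higher (2.28 to 4.36) in arf10/16 without Al. PDR12, an ABC transporter gene, was 3.15-fold lower in arf10/16 than in wild type under Al (1.53 to 7.09), from 10 and 37 reads.

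Of 8 tryptophan synthesis genes that passed the filter 2 were higher without Al, TSB1 by 2.07-fold (1.87 to 2.28) and ASB1 by 4.23-fold from 5 and 19 reads (1.53 to 14.5). Of the 8 other core enzymes the peptidase gene GGP1 (2.79-fold, 2.51 to 3.10) and the sulfotransferase gene SOT16 (2.46-fold, 2.20 to 2.75) were higher. GSTF9, GSTF10, UGT74B1, APK1 and SUR1 had log2 ratios from -0.40 to 0.47. The lowest, that of SUR1, rests on 11 and 7 reads (interval of the ratio 0.233 to 2.00). Of the 5 other modifying genes 3 were higher: CYP81F3 (2.14-fold, 1.76 to 2.61), IGMT3 and IGMT4 (15.0-fold, 5.54 to 57.1).

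Of the breakdown and transport genes, 5 of 16 were higher in arf10/16 without Al and 2 with Al, and 0 were lower in either comparison. Of all loci, 7.96% were higher and 2.6% lower without Al, and 4.12% and 1.77% with Al. With Al in either line, 1 of the 16 was higher and 7 were lower. The shares of all loci were 14.4% and 12.1% in wild type, and 10.8% and 9.41% in arf10/16. Those higher without Al were led by PEN3, an ABC transporter gene of pathogen defence, with 2904 and 14736 reads (5.65-fold, 5.42 to 5.88). The importer gene GTR1 (3.31-fold, 2.58 to 4.28), the atypical myrosinase gene PEN2 (3.18-fold, 2.96 to 3.42) and the nitrilase gene NIT2 (2.55-fold, 1.41 to 4.81) followed. The 2 higher in arf10/16 under Al were TGG5, a root myrosinase gene (2.85-fold, 2.14 to 3.84), and NSP4 (2.73-fold, 1.68 to 4.55). With Al, the root myrosinase gene TGG4 and the specifier protein genes NSP3 and NSP4 were lower in wild type: TGG4 by 15.3-fold from 16 and 1 reads (2.37 to 640), NSP3 by 5.61-fold (4.53 to 7.02) and NSP4 by 6.68-fold (4.38 to 10.6). In wild type NIT2 was 12.9-fold higher with Al (7.89 to 22.6), and in arf10/16 9.17-fold (6.57 to 13.1). Among the 7 root marker genes 5 were lower with Al in wild type and 4 in arf10/16, beside 12.1% and 9.41% of all loci. SHR and SCR passed the rule in neither line. Between the lines under Al, 2 root markers were higher in arf10/16 and 0 lower, beside 4.12% and 1.77% of all loci. The 2 were COBL9 (3.42-fold, 2.05 to 5.91) and PIN2 (2.33-fold, 1.78 to 3.05). Whether TGG5 and NSP4 differ for the same reason was not tested.

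Over the 4 libraries, edgeR's quasi-likelihood test in an additive model of line and treatment called 10 of these 52 genes higher and 0 lower in arf10/16 at an adjusted p of 0.05, beside 1.96% and 0.319% of all loci. At an unadjusted p under 0.05 it gave 22 higher and 1 lower; after adjustment 7 and 0 were called by DESeq2's Wald test and 0 and 0 by limma-trend on RPKM values. The effects were largest for IGMT4 (3.12 ± 0.61 on the log2 scale, SE; adjusted p = 0.0443) and IGMT3 (2.38 ± 0.35; adjusted p = 0.0257), followed by WRKY33 (1.67 ± 0.27; adjusted p = 0.0283). Of the 50-base windows of the IGMT3 transcript, 32.2% occur in IGMT2, so the value of IGMT3 is not independent of the set. Calls between the lines depend on the settings, since a filter of at least 50 reads over the 4 libraries left 0 of the 10. The test has 1 residual degree of freedom, and the departures from additivity described above enter its error.

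For Al the same test gave 8 genes that rose and 13 that fell, beside 15.5% and 13.1% of all loci; DESeq2's Wald test gave 3 and 8. NIT2 (3.40 ± 0.24) and GSTU4 (4.35 ± 0.33), a glutathione S-transferase gene, rose, and so did NAC042 (1.98 ± 0.32) and PDR12 (3.20 ± 0.65). Of the 13 that fell, 10 were breakdown and transport genes, among them NSP3 (-2.07 ± 0.24), TGG4 (-2.15 ± 0.65) and PEN2 (-1.37 ± 0.24). IGMT3 (-1.55 ± 0.34), IGMT4 (-2.41 ± 0.60) and CYP71A12 (-0.91 ± 0.19) also fell. These effects average the 2 lines. The log2 ratio of IGMT3 with Al was -0.70 in wild type, under the rule of size, and -2.31 in arf10/16. IGMT4 had 4 reads without and 3 with Al in wild type, and 54 and 6 in arf10/16.

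The aliphatic glucosinolates, which are built from methionine by a parallel set of enzymes, had mostly ratios below 1 between the lines. Of 18 listed loci 13 passed the filter, and 11 of these had a log2 ratio below 0 between arf10/16 and wild type without Al (median -0.67) and 12 with Al (median -0.78). By the rule of size 1 was lower without Al and 3 with Al, beside 2.6% and 1.77% of all loci, and 0 were higher. CYP83A1, the aliphatic counterpart of CYP83B1, had 881, 356, 446 and 199 reads and was 2.22-fold lower in arf10/16 without Al (1.96 to 2.52). CYP83B1 thus took 57.2% of the reads of these 2 genes in wild type without Al (55.1 to 59.4) and 88.8% in arf10/16 without Al (87.6 to 89.9), and 71.7% (69.4 to 73.9) and 88.1% (86.4 to 89.6) with Al.

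With Al, MAM1 (2.07-fold, 1.63 to 2.64) and MAM3 (2.12-fold, 1.86 to 2.42), of side-chain elongation, and MYB28 (2.13-fold, 1.16 to 4.07), the activator of the aliphatic genes, were lower in arf10/16. By the additive edgeR quasi-likelihood test 1 gene out of 13 was lower in arf10/16 (CYP83A1, -1.04 ± 0.19, adjusted p = 0.0385), beside 0.319% of all loci, and 0 were higher. At an unadjusted p under 0.05 it gave 10 lower and 0 higher, and with adjustment DESeq2's Wald test and limma-trend gave 0 lower and 0 higher. For Al, 7 fell, beside 13.1% of all loci, and 0 rose in edgeR's test (8 and 0 at an unadjusted p under 0.05), with MAM1 at -1.32 ± 0.20; DESeq2 gave 1 and 0, and limma-trend 7 and 0. Summed over the 15 loci with a row, the aliphatic genes had 2601 CPM in wild type and 1579 in arf10/16 without Al, and 1675 and 975.2 with Al. The 10 indole and camalexin genes summed to 1268 and 4316 CPM without Al, and 1366 and 2224 with Al.

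**Figure D5:**
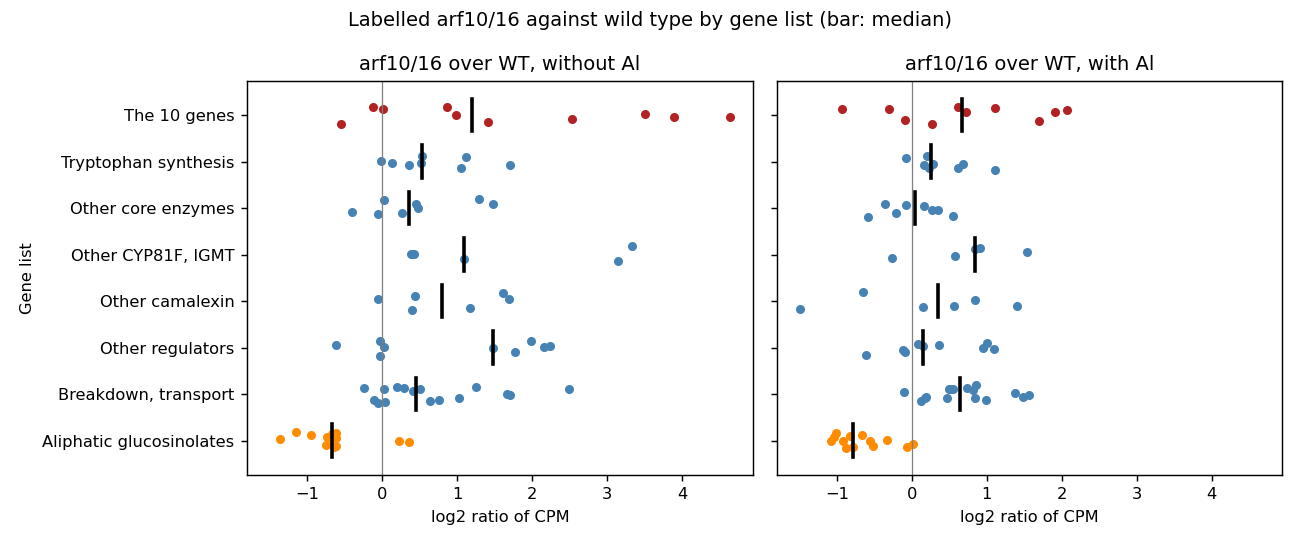
Log2 ratio of CPM of the library labelled arf10/16 over wild type, without and with Al, for the 10 genes (red), 6 further lists of the indole side (blue) and aliphatic glucosinolate genes (orange), 1 point a gene and a bar at the median. The median is 1.19 for the 10 genes and -0.67 for the aliphatic genes without Al.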

How the data were processed

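The 4 samples are single RNA-seq libraries of roots. The authors deposited whole-number counts of reads per transcript model and RPKM values of the same models, per the file headers and values. Implied model lengths were whole within 0.01 bp for 100% of models, and an empty mark was read as 0. The sources used here do not name an aligner, counter, strand setting or genome build, so no coordinates are printed. Counts were summed per locus, filtered with edgeR's filterByExpr over the 4 groups (14739 loci kept) and scaled by TMM. Log2 ratios used a prior count of 2. Counting intervals of ratios and shares are exact (Clopper-Pearson), those of the difference of responses come from the 4 counts plus 0.5, and all cover counting error only. Effects of the additive model are from edgeR 4.0.16 in R 4.3.3 (quasi-likelihood test, Benjamini-Hochberg over all loci); DESeq2 1.42.0 and limma 3.58.1, the latter on log2(RPKM + 0.5), were alternatives. Its SE is the effect divided by the square root of F. The procedure was checked on simulated counts. Total-count scaling, other priors, other filters and single models were also tried. Symbols came from RefSeq (99.3% of loci matched). The members and the lists were chosen with earlier results of these data known. Named are all 10 members, up to 4 genes a list and comparison past the rule of size by size of ratio, the close relatives of members, ARF10, ARF16 and the 5 nearest by profile. APK2, MYC3, MYC4 and other listed genes given as not past the rule of size were named after their values were seen.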

Additional observations from a re-analysis of the deposited data

Results flagged for a closer look

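For 2 of the 10 genes the Al response went in opposite directions in the lines, with both counting intervals away from 1. The share of all loci that did so was not counted, so the count of 2 is a description only. CYP81F2 was 1.70-fold higher with Al in wild type and 2.37-fold lower in the pair labelled arf10/16, a difference of -1.98 on the log2 scale. IGMT1 was 1.97-fold higher in wild type and 3.14-fold lower in the other pair, a difference of -2.56. With 1 library per group the difference was not tested, and in neither gene did the wild-type ratio pass the rule of size. Both genes were chosen with results of these libraries known. Both were highest in the untreated arf10/16 library, which enters the difference.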

How the results depend on the processing

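No paired analysis was possible because each group has 1 library, and no library could be left out. Under total counts, DESeq2 size factors, the RPKM, other prior counts, other filters and the best-read model, no ratio past the rule of size changed sign, and 398 values for the 10 genes kept their call. The other 2 are PAD3 with Al, so that 1 of the 10 genes was lower in arf10/16 with Al under total counts and under the RPKM. For the other listed genes 3058 values kept their call, 25 lost a call and 42 gained one. Total counts shift the median log2 ratio of all loci between the lines without Al to -0.12, and the share higher among called loci from 75.4% to 61.8% (55.7% with Al, from 69.9%). DESeq2's Wald test gave 1049 loci that rose and 690 that fell with Al, against 2282 and 1929, and on the indole side 3 and 8 against 8 and 13, with 1 aliphatic gene lower against 7; limma-trend gave 5 higher on the indole side. Calls between the lines were 289 higher and 47 lower by edgeR's quasi-likelihood test. Higher were 105 under total counts, 174 with DESeq2, 1 with limma-trend, 740 without a filter, 15 with at least 50 reads and 116 with the best-read model, and lower were 6 with DESeq2, 0 with limma-trend, 179 without a filter, 3 with at least 50 reads and 14 with the best-read model. On the indole side 10 were higher, against 4 under total counts, 0 with limma-trend, 16 without a filter, 0 with at least 50 reads and 4 with the best-read model. Of the aliphatic genes 1 was lower, against 0 with DESeq2, limma-trend, at least 50 reads and the best-read model, and 6 without a filter. The cause was not tested. CYP71A13, IGMT4, PDR12 and SUR1 rest on few reads.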
